A study of Homo sapiens with 16 samples.

Results

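Cells of the established human colorectal carcinoma line HCT116 that stably carry a non-targeting shRNA (shNT) were compared after 24 h at 1% oxygen (hypoxia) and under ambient oxygen at 21% (normoxia). The 4 libraries of these cells, 2 in hypoxia and 2 in normoxia, were chosen by line and oxygen level from 16 libraries. The other 12 were of HCT116 cells with an shRNA against TIP60 (shTIP60), with an shRNA against CDK8 (shCDK8) or with HIF1A deleted (HIF1A-null, HIF1A-/-), under the same oxygen levels. Plating in McCoy's 5A medium with serum took place 24 h before treatment, and poly(A) RNA was read on the Ion Torrent Proton platform. The libraries of a group are described as independent biological replicates, so p-values rest on 2 cultures against 2, and shNT is a single line. The labels give neither the vector nor the shRNA sequence.

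Cells answer low oxygen mainly through hypoxia-inducible factors (HIF). In oxygen, prolyl hydroxylases of the EGLN family mark the HIF alpha subunits for the VHL ubiquitin ligase and destruction. In low oxygen the alpha subunits last, pair with ARNT and bind DNA with the core letters ACGTG or GCGTG near genes of glucose use, pH control, vessel growth and mitochondrial turnover. In colorectal carcinoma cells the same system is known for a turn to lactate production and for a slowing of growth and division.

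Levels are in CPM, read counts rescaled so that libraries of unequal depth can be compared, with trimmed mean of M-values (TMM) factors. They are given for library A and then library B, named after the lower and higher number series of the column names. Changes are log2 fold changes of hypoxia over normoxia ± SE. The quasi-likelihood test of edgeR gave the p, adjusted over all genes, and a gene is called at an adjusted p below 0.05. In brackets after a gene stand its log2 fold change ± SE and adjusted p. The 2 shNT libraries in hypoxia held 30871326 and 31719784 counts and those in normoxia 30300101 and 38040687, within the 26620086 to 39401494 of all 16. The 10 most abundant genes took 7.35 and 7.06% of counts in hypoxia, against 3.51 and 3.50% in normoxia. The epithelial markers fixed for colon cells summed to 9493 and 7326 CPM of library totals in hypoxia and 4466 and 4564 CPM in normoxia, with 12 of 17 past the filter on low counts and TFF3 at 0. Mesenchymal markers summed to 151 and 156 CPM in hypoxia and 94.8 and 106 CPM in normoxia, with 10 of 17 past the filter and DCN and LUM at 0. Blood and endothelial markers summed to 1.65 and 1.73 CPM in hypoxia and 1.12 and 1.24 CPM in normoxia, with 5 of 12 past the filter and CD34 and CD3E at 0. In the epithelial list CDH17, CDX1, CEACAM5 and CEACAM6 were also below the filter, at 0 to 5 counts per library. KRT19 alone took 0.474 and 0.342% of counts in hypoxia, of 0.949 and 0.733% for that list. In normoxia it took 0.18% in each library, of 0.447 and 0.456%. By these sums the libraries carried an epithelial profile under both oxygen levels, though not with every colon marker of the list.

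Hypoxia moved a large share of the transcriptome, in both directions. Of 15520 genes tested, 6311 were called, or 40.7%, with 3208 higher in hypoxia (20.7%) and 3103 lower (20.0%). A further test against a change of 1.5-fold left 1962 genes (12.6%), with 1118 higher (7.20%) and 844 lower (5.44%). Fitted changes reached past 8-fold in 90 of the genes called higher and 29 of those called lower, and lay between 4-fold and 8-fold in 184 higher and 79 lower. The hypoxic and normoxic libraries did not overlap in 10827 genes (69.8%), which is the share against which such statements about single genes are to be read. Genes named for a small p or a large change mostly do not overlap because of that choice. For them the lack of overlap describes the values and adds no support. Counts of list members are to be read beside the 20.7% called higher and 20.0% called lower of all genes tested. Without normoxia library A, 4104 genes were called, with 2045 higher and 2059 lower, and 1163 passed the test against 1.5-fold.

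The balance of directions depended on how the libraries were scaled. With library totals in place of TMM factors the median change of all genes was -0.20 instead of about 0, and 2116 genes were called higher and 4605 lower. Changes are given relative to the TMM scale throughout. Measured as plain shares of counts, the genes called higher took 41.8 and 42.4% of counts in hypoxia, against 24.0 and 25.4% in normoxia. The genes called lower took 12.6 and 11.9% in hypoxia, against 24.4 and 22.9% in normoxia. The glycolytic enzyme GAPDH alone held 0.891 and 1.06% of all counts in hypoxia, against 0.319 and 0.306% in normoxia. The cytoskeletal actin ACTG1 held 1.05 and 1.11% in hypoxia, against 0.518 and 0.425% in normoxia.

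**Figure D1:**
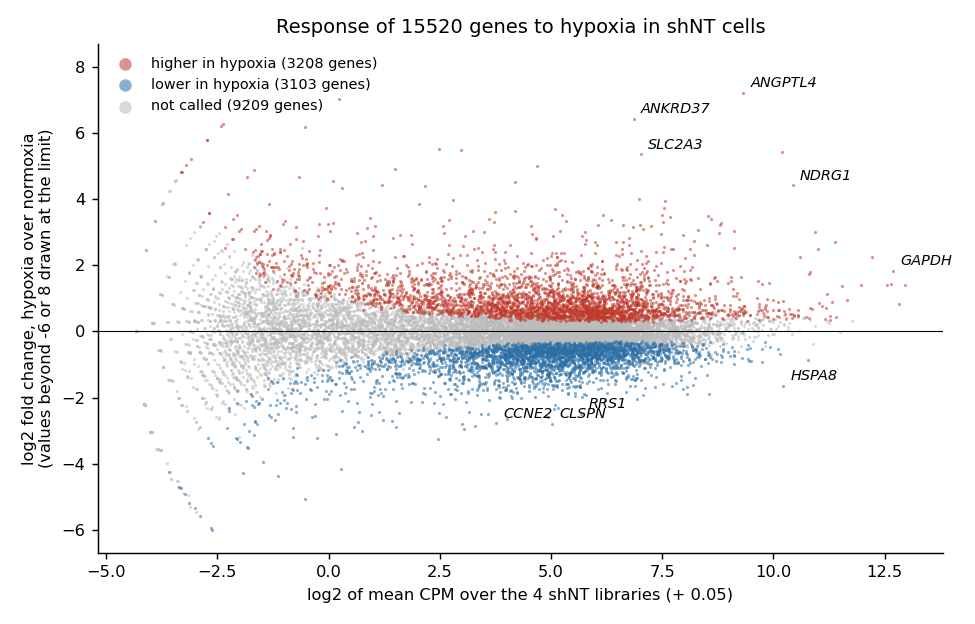
Log2 fold change of hypoxia over normoxia (vertical axis) against the log2 of mean CPM over the 4 shNT libraries (horizontal axis), a point per gene for 15520 genes, with 3208 called higher in hypoxia in red, 3103 called lower in blue and the rest in grey. The highest points at high levels are hypoxia genes such as ANGPTL4 and NDRG1. The labelled genes called lower include CLSPN of replication and RRS1 of ribosome assembly, with other genes lower still.

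A panel of 12 genes known as HIF reporters was called higher without exception, beside 20.7% of all genes tested, with log2 changes from 1.80 ± 0.15 for LDHA to 7.23 ± 0.25 for ANGPTL4. ANGPTL4, a secreted inhibitor of lipoprotein lipase (chromosome 19, 8428173 to 8439254 in GRCh37), had 1509.6 and 1031 CPM in hypoxia, against 8.56 and 8.41 CPM in normoxia. Its adjusted p of 8.00e-11 belonged to a mean of 1270.2 ± 339 CPM in hypoxia and 8.48 ± 0.110 CPM in normoxia (SD, n = 2 each). ANKRD37, an ankyrin repeat protein, had 181 and 278 CPM in hypoxia, against 3.26 and 2.08 CPM in normoxia. Both hypoxic libraries of each gene stood far above both normoxic ones, by more than for any other gene of the panel.

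CA9, the carbonic anhydrase of the cell surface, had 56 and 44.2 CPM in hypoxia, against 2.19 and 1.00 CPM in normoxia (5.00 ± 0.28, adjusted p = 4.57e-09). NDRG1, a stress protein, had 2466 and 2801 CPM in hypoxia, against 106 and 139 CPM in normoxia (4.43 ± 0.27, adjusted p = 1.19e-08). ADM, which encodes the vasodilator adrenomedullin, had 601 and 760.3 CPM in hypoxia, against 68.2 and 53 CPM in normoxia (3.49 ± 0.19, adjusted p = 4.57e-09). In none of these 3 genes did the groups overlap. ANKRD37 shares 40.3% of its exons with UFSP2, and CA9 shares 35.7% with ARHGEF39, and the strand setting of the counting was not given, so reads of those neighbours may be counted with them.

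P4HA1, a collagen prolyl hydroxylase, had 299 and 366 CPM in hypoxia, against 29.7 and 28.6 CPM in normoxia (3.51 ± 0.19, adjusted p = 4.24e-09). KDM3A, a histone demethylase that itself needs oxygen, had 285 and 384 CPM in hypoxia, against 33.4 and 34.2 CPM in normoxia (3.31 ± 0.19, adjusted p = 8.28e-09). PDK1, a kinase that shuts off pyruvate dehydrogenase, had 104 and 136 CPM in hypoxia, against 13.1 and 12.4 CPM in normoxia (3.23 ± 0.20, adjusted p = 1.19e-08). For these 3 enzymes both hypoxic libraries were well above both normoxic ones. BNIP3, a mitophagy receptor, had 211 and 271 CPM in hypoxia, against 31.7 and 24.2 CPM in normoxia (3.11 ± 0.17, adjusted p = 4.57e-09). VEGFA, the vascular growth factor, had 289.8 and 283 CPM in hypoxia, against 72.6 and 65.1 CPM in normoxia (2.06 ± 0.15, adjusted p = 6.86e-08). LDHA, the lactate dehydrogenase subunit that favours lactate, had 2609 and 3003 CPM in hypoxia, against 898 and 709 CPM in normoxia (1.80 ± 0.15, adjusted p = 3.62e-07). LDHA and VEGFA had the smallest changes of the panel, still without overlap.

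**Figure D2:**
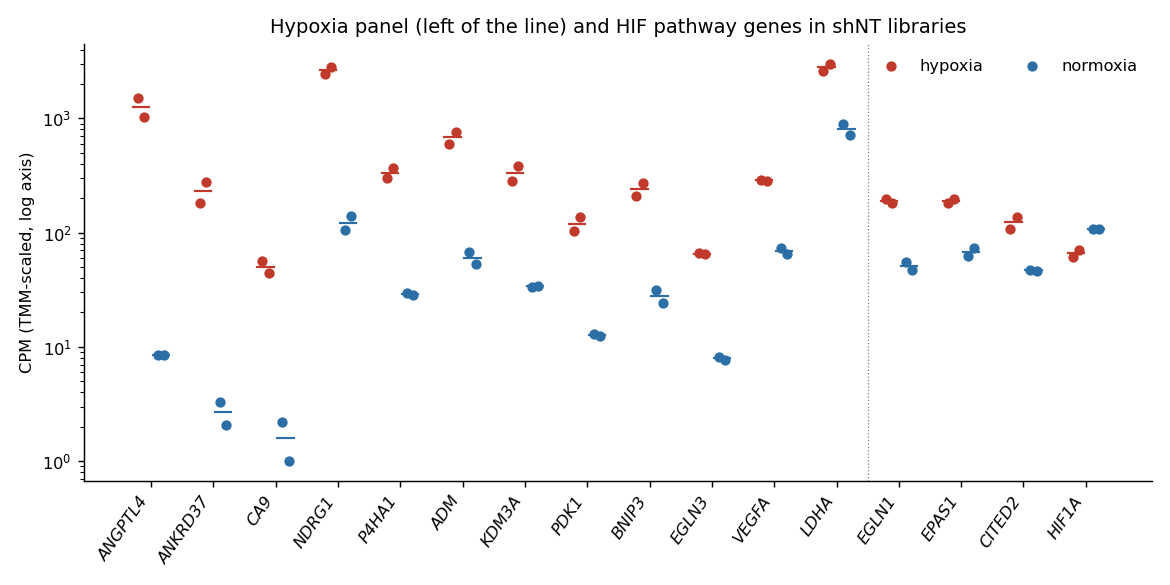
TMM-scaled CPM on a log axis in each shNT library for the 12 panel genes (left of the dotted line) and 4 further HIF pathway genes, hypoxia in red to the left of normoxia in blue, with horizontal bars at the means of 2 libraries. The hypoxic points lie above the normoxic ones for every gene drawn except HIF1A, where they lie below.

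The promoters of 5 panel genes show how unevenly the core letters ACGTG or GCGTG are placed. They are examples, and they include all 3 of the 10 panel promoters found in RefSeq that held 2 or more matches. ANGPTL4, ADM and P4HA1, with 1 match each, are not printed. The sequences are from RefSeq on GRCh38.p14, 5′ to 3′ on the gene's strand. Each has 250 bases before the start of the gene and 50 from it on. Capitals mark each match of the core letters on either strand. The regions are chr4:185396591-185396890 on the plus strand (ANKRD37), chr10:131981874-131982173 on the minus strand (BNIP3), chr11:18394313-18394612 on the plus strand (LDHA), chr9:35673678-35673977 on the plus strand (CA9) and chr2:86441121-86441420 on the plus strand (KDM3A).
ANKRD37: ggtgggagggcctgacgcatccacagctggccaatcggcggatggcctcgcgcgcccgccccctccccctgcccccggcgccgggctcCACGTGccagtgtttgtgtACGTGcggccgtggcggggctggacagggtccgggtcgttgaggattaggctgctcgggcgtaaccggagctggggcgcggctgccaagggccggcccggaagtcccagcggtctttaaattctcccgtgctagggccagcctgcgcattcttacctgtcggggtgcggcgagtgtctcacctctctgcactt
BNIP3: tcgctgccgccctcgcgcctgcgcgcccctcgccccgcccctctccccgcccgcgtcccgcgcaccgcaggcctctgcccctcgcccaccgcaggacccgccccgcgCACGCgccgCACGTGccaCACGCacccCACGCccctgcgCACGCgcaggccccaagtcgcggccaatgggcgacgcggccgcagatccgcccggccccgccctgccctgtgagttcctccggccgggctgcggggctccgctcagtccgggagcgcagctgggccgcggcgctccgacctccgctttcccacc
LDHA: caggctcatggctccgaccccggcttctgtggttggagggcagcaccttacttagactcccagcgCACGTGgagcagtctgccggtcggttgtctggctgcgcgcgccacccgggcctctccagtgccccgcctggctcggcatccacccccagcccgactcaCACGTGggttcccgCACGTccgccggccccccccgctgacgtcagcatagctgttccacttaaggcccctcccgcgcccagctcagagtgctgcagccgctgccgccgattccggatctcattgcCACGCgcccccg
CA9: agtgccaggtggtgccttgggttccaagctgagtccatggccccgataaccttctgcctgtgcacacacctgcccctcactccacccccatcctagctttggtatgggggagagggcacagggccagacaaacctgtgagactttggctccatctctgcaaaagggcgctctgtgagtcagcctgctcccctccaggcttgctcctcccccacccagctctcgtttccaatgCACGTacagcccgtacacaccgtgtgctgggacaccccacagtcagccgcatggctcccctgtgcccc
KDM3A: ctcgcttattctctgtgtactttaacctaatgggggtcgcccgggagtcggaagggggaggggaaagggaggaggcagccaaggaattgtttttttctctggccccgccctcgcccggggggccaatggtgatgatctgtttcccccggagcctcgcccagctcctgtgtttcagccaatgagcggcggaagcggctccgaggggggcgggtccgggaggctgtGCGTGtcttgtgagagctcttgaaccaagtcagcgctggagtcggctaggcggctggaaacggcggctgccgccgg
ANKRD37 held 3 matches, BNIP3 and LDHA 6 each, and CA9 and KDM3A 1 each, at base -18 and base -26 from the start. The windows of EGLN3 and PDK1 at the RefSeq start held 0 matches.

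Over all genes the same letters were common in promoters whichever way a gene moved. In windows of 300 bases from GENCODE models on GRCh37, which covered 93.6% of tested genes, a match stood in 62.7% of the genes called higher, 67.0% of those called lower, 60.6% of those not called and 62.4% of all tested. The panel had a match in 11 of 12 (91.7%) in these windows, whose starts can differ from those of RefSeq. A window held 2 or more matches in 33.3% of the panel and 33.0% of all tested. The matches overlap where both motifs or both strands share bases, and a window without one says nothing of sites elsewhere.

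Of the oxygen-sensing machinery itself, 19 members were tested, 7 rose (36.8%) and 4 fell (21.1%, and 7 members with library totals). The share that fell is near the 20.0% of all genes tested, of which 20.7% rose. The median change was -0.0256 beside -0.000669 for all genes tested. HIF1A, the alpha subunit best known for glycolytic targets (chromosome 14, 62162231 to 62214977), had 61.2 and 70.5 CPM in hypoxia, against 107 and 108 CPM in normoxia (-0.71 ± 0.15, adjusted p = 0.00124). EPAS1, which encodes the alpha subunit HIF2A (chromosome 2, 46520806 to 46613836), had 182 and 199 CPM in hypoxia, against 62.5 and 73.8 CPM in normoxia (1.48 ± 0.13, adjusted p = 5.81e-07). The mRNAs of these alpha subunits thus moved in opposite directions, each with groups that did not overlap. HIF1A-AS2, an antisense transcript of HIF1A, had 36 and 47 counts in hypoxia, against 0 and 0 in normoxia, which is at least 15.1-fold higher with a floor of 3 counts per normoxic library. Without stated strand setting, reads of such an antisense RNA and its partner cannot be told apart.

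The hydroxylases that sense oxygen divided. EGLN3 had 66.3 and 65 CPM in hypoxia, against 8.22 and 7.74 CPM in normoxia (3.04 ± 0.20, adjusted p = 2.47e-08). EGLN1, the main HIF prolyl hydroxylase, had 196 and 183 CPM in hypoxia, against 55.9 and 47.2 CPM in normoxia (1.88 ± 0.13, adjusted p = 4.81e-08). EGLN2 was called lower at very low levels, with 0.207 and 0.331 CPM in hypoxia and 0.832 and 0.764 CPM in normoxia (-1.55 ± 0.59, adjusted p = 0.0467). That call was lost under 5 of the alternatives, among them leaving out any of the 4 libraries, with adjusted p up to 0.207, and the gene shares 30.6% of its exons with the readthrough RAB4B-EGLN2. HIF1AN, the asparagine hydroxylase FIH, had 127 and 114 CPM in hypoxia and 133 and 144 CPM in normoxia and was not called (-0.20 ± 0.11, adjusted p = 0.174).

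Partners and feedback genes of HIF also moved. CITED2, which competes with HIF for the coactivators EP300 and CREBBP, had 108 and 138 CPM in hypoxia, against 46.7 and 46.6 CPM in normoxia (1.40 ± 0.16, adjusted p = 5.91e-06). SIAH2, a ubiquitin ligase that degrades EGLN proteins, had 74.1 and 94.1 CPM in hypoxia, against 39.5 and 42.5 CPM in normoxia (1.04 ± 0.15, adjusted p = 5.81e-05). ARNT had 67.8 and 81.3 CPM in hypoxia, against 41.7 and 50.3 CPM in normoxia (0.69 ± 0.16, adjusted p = 0.00291). Both hypoxic libraries were the higher ones in all 3 genes, but the ARNT call was lost without normoxia library A (adjusted p = 0.052). ARNT2 had 8.07 and 7.34 CPM in hypoxia, against 11.3 and 12.2 CPM in normoxia (-0.61 ± 0.17, adjusted p = 0.00971), and CUL2, the scaffold of the VHL ligase, had 35.7 and 39.8 CPM in hypoxia, against 57.3 and 54.4 CPM in normoxia (-0.56 ± 0.16, adjusted p = 0.0123). The ARNT2 call was lost without hypoxia library B or normoxia library B, and the CUL2 call without hypoxia library A or normoxia library A. VHL (-0.30 ± 0.15, adjusted p = 0.129), RBX1 (-0.23 ± 0.16, adjusted p = 0.264), SIAH1 (-0.36 ± 0.16, adjusted p = 0.0914), EP300 (0.10 ± 0.15, adjusted p = 0.645), CREBBP (-0.22 ± 0.20, adjusted p = 0.41), ARNTL (-0.03 ± 0.17, adjusted p = 0.921) and the low HIF3A (2.01 ± 0.84, adjusted p = 0.0668) were not called. Of the 4 members called lower, 2 were called without hypoxia library A, without normoxia library A or without normoxia library B.

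Glucose entry and glycolysis rose almost as a whole: 21 of 25 members tested were called higher and 2 lower, with a median change of 1.51. The list took 4.53 and 4.60% of all counts in hypoxia, against 1.56 and 1.42% in normoxia. SLC2A3, the high-affinity glucose transporter GLUT3, had 241 and 266 CPM in hypoxia, against 6.04 and 6.30 CPM in normoxia (5.36 ± 0.26, adjusted p = 1.55e-09). SLC2A1, the widespread transporter GLUT1, had 1035 and 845 CPM in hypoxia, against 165 and 162 CPM in normoxia (2.52 ± 0.18, adjusted p = 5.49e-08). Both rose with no overlap, and their near relative SLC2A14 had 10.6 and 11 CPM in hypoxia, against 0.339 and 0.143 CPM in normoxia (5.53 ± 0.39, adjusted p = 4.78e-08), though it is a near-identical copy of SLC2A3 and its reads cannot be assigned with certainty. PFKFB4, a regulator of phosphofructokinase (chromosome 3, 48555117 to 48599448), had 363 and 324 CPM in hypoxia, against 27.5 and 24 CPM in normoxia (3.74 ± 0.15, adjusted p = 2.02e-10). ALDOC and ENO2, isoforms of aldolase and enolase known from brain, had 751 and 673 CPM in hypoxia and 71 and 63.3 CPM in normoxia (ALDOC, 3.41 ± 0.20, adjusted p = 9.01e-09) and 803 and 826 CPM in hypoxia and 86.7 and 80.7 CPM in normoxia (ENO2, 3.28 ± 0.14, adjusted p = 5.35e-10).

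Isozyme makeup shifted within most families, measured as the share of each member in its family's counts per kb of exon. LDHA made up 68.2 and 66.8% in hypoxia, against 35.8 and 29.3% in normoxia of lactate dehydrogenase A and B. HK2, the hexokinase linked to tumours, had 371 and 382 CPM in hypoxia, against 42.3 and 25.7 CPM in normoxia (3.47 ± 0.27, adjusted p = 1.31e-07) and made up 52.9 and 57.9% in hypoxia, against 27.3 and 20.4% in normoxia of hexokinases 1 and 2. PFKFB4 made up 76.2 and 73.7% in hypoxia, against 25.8 and 23.9% in normoxia of its family, while PFKFB3 made up 20.8 and 23.4% in hypoxia, against 58.4 and 61.3% in normoxia. In these 3 families a member with less than 50% in both normoxic libraries held more than 50% in both hypoxic ones. Without scaling to exon length LDHA already held 52.9% of counts in normoxia library A and HK2 still 49.2% in hypoxia library A, so the crossing of 50% depends on that scaling for these 2 genes. PFKFB3 itself rose in level (0.71 ± 0.15, adjusted p = 0.00113), as did HK1 (1.51 ± 0.14, adjusted p = 7.40e-07), so their shares fell beside faster relatives. PFKFB2 fell in level (-0.44 ± 0.14, adjusted p = 0.018), a call lost without hypoxia library B, without normoxia library A or in a fit of only the 4 shNT libraries. PFKFB1 was barely detected, and its call (0.99 ± 0.36, adjusted p = 0.0361) was lost under 8 alternatives.

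PDK1 made up 30.4 and 34.5% in hypoxia, against 6.23 and 5.70% in normoxia of the 4 pyruvate dehydrogenase kinases, and PDK2 49.5 and 45.8% in hypoxia, against 83.6 and 83.6% in normoxia. Without scaling to exon length PDK1 held 44.9 and 49.8% in hypoxia and PDK2 27.0 and 24.3%. Which of them leads in hypoxia thus depends on that scaling, while the rise of the PDK1 share does not. SLC2A3 made up 17.5 and 22.3% in hypoxia, against 3.23 and 3.42% in normoxia of glucose transporters 1 and 3. SLC16A3, the lactate exporter MCT4, made up 92 and 88.6% in hypoxia, against 76 and 74% in normoxia of it and SLC16A1 (MCT1). The direction was the same in both libraries of each family, though GLUT1 remained the major transporter in all 4. EGLN3 made up 19.8 and 20.6% in hypoxia, against 9.61 and 10.6% in normoxia of the 3 EGLN hydroxylases, ALDOC 12.7 and 10.9% in hypoxia, against 5.62 and 5.70% in normoxia of aldolases A and C, and ENO2 9.71 and 10.7% in hypoxia, against 2.88 and 3.11% in normoxia of 3 enolases. P4HA1 made up 88.5 and 92.1% in hypoxia, against 75.6 and 72% in normoxia of the collagen prolyl hydroxylase alpha chains. Without length scaling its share was 70.7 and 78.3% in hypoxia, against 50.3 and 46.0% in normoxia. PLOD2 made up 5.10 and 7.97% in hypoxia, against 2.19 and 2.54% in normoxia of the lysyl hydroxylases. Their relatives ALDOA (2.25 ± 0.15, adjusted p = 3.32e-08), ENO1 (1.40 ± 0.15, adjusted p = 2.79e-06), P4HA2 (1.89 ± 0.15, adjusted p = 1.80e-07) and PLOD1 (1.51 ± 0.17, adjusted p = 4.93e-06) rose as well, as did PFKP (1.52 ± 0.21, adjusted p = 4.14e-05), PFKL (0.98 ± 0.20, adjusted p = 0.00101) and ENO3 (0.93 ± 0.18, adjusted p = 0.000638), while PFKM (0.08 ± 0.12, adjusted p = 0.615), PLOD3 (0.12 ± 0.20, adjusted p = 0.655) and P4HA3 (0.09 ± 0.46, adjusted p = 0.902) were not called.

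**Figure D3:**
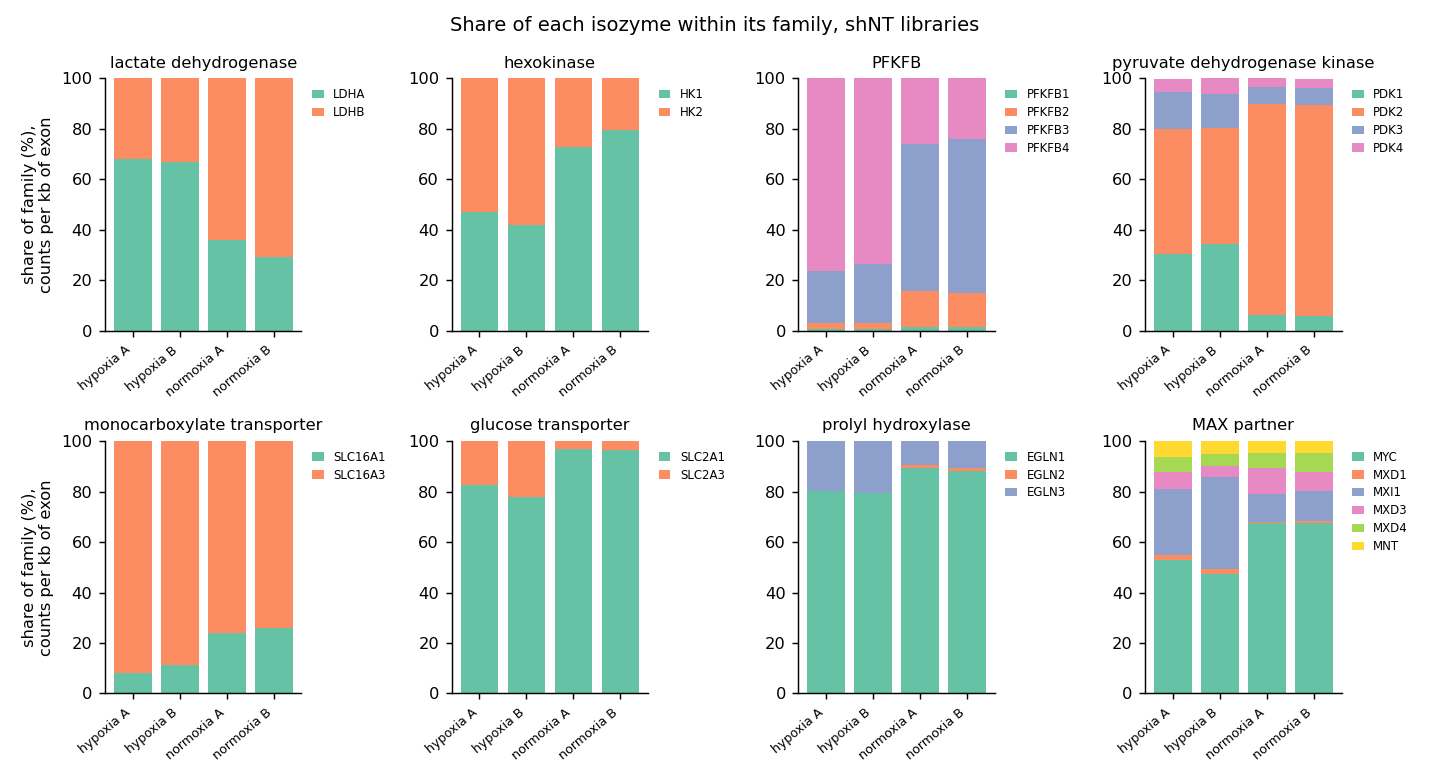
Share of each isozyme in its family's counts per kb of exon (vertical axis, %), a stacked bar per shNT library, hypoxia A and B left of normoxia A and B, for 8 families. On this per-kb scale LDHA, HK2 and PFKFB4 hold over 50% of their family in both hypoxic libraries and less in both normoxic ones; without length scaling LDHA holds 52.9% in normoxia A and HK2 49.2% in hypoxia A.

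The fate of pyruvate was divided: of 21 members tested 6 rose and 7 fell, with a median of 0.0599 that was -0.138 with library totals. The mRNAs for its entry into mitochondria and its oxidation fell. PDHA1, a catalytic subunit of pyruvate dehydrogenase, had 60.4 and 62.8 CPM in hypoxia, against 94.1 and 98.8 CPM in normoxia (-0.65 ± 0.11, adjusted p = 0.000218). DLAT (-0.66 ± 0.12, adjusted p = 0.000446), DLD (-0.59 ± 0.13, adjusted p = 0.00228) and PDHB (-0.53 ± 0.15, adjusted p = 0.00918), further subunits, fell too, as did the mitochondrial pyruvate carriers MPC1 (-0.67 ± 0.18, adjusted p = 0.00762) and MPC2 (-0.51 ± 0.15, adjusted p = 0.0131). PDHX (0.06 ± 0.12, adjusted p = 0.729) was not called. The PDHB call was lost without hypoxia library B, and the MPC2 call without hypoxia library B or normoxia library A.

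The kinases that inhibit pyruvate dehydrogenase were higher apart from PDK2. PDK3 had 59.4 and 63.6 CPM in hypoxia, against 16.5 and 17.6 CPM in normoxia (1.85 ± 0.17, adjusted p = 7.05e-07), and PDK4 had 5.45 and 7.24 CPM in hypoxia, against 2.25 and 2.53 CPM in normoxia (1.41 ± 0.48, adjusted p = 0.0291), a call lost with library totals and without hypoxia library B or either normoxic library. PDK2 overlapped between groups at 62.2 and 66.7 CPM in hypoxia and 64.7 and 67.1 CPM in normoxia and was not called (-0.03 ± 0.14, adjusted p = 0.873). On the lactate side SLC16A3 had 1228 and 873 CPM in hypoxia, against 580.5 and 470.1 CPM in normoxia (1.00 ± 0.19, adjusted p = 0.000559), and SLC16A1 had 73.5 and 77 CPM in hypoxia, against 126 and 113 CPM in normoxia (-0.67 ± 0.13, adjusted p = 0.000898). The lactate exporter was thus higher and its relative lower, without overlap in either gene. Pyruvate carboxylase, PC, had 81 and 63.7 CPM in hypoxia, against 29 and 32.5 CPM in normoxia (1.24 ± 0.16, adjusted p = 1.78e-05). LDHB (-0.29 ± 0.17, adjusted p = 0.175), SLC16A7 (0.50 ± 0.24, adjusted p = 0.103), the transporter chaperone BSG (0.37 ± 0.17, adjusted p = 0.102), the phosphatases PDP1 (0.51 ± 0.20, adjusted p = 0.0563) and PDP2 (-0.08 ± 0.19, adjusted p = 0.79) and the barely detected LDHC (2.64 ± 1.05, adjusted p = 0.0554) were not called. With the header number series as a replicate block, 10 members were called higher.

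Glycogen genes had 7 of 14 members higher and 3 lower (1 lower without normoxia library A) and a median of 0.381. PPP1R3B, which targets phosphatase to glycogen, had 184 and 231 CPM in hypoxia, against 22.2 and 24.6 CPM in normoxia (3.15 ± 0.20, adjusted p = 2.07e-08). GBE1, the branching enzyme, had 139 and 155 CPM in hypoxia, against 29.8 and 29.4 CPM in normoxia (2.31 ± 0.13, adjusted p = 5.59e-09). GYS1, glycogen synthase (1.17 ± 0.15, adjusted p = 2.53e-05), and PGM1, which feeds it (1.03 ± 0.12, adjusted p = 1.09e-05), rose by about 1 on the log2 scale. In these 4 genes of glycogen building both hypoxic libraries were the higher ones.

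For pH control, 4 of 13 members rose and 1 fell, with a median of 0.132 that was -0.0662 with library totals, and without normoxia library A 2 rose. CA2, a cytosolic carbonic anhydrase, had 18.2 and 15.1 CPM in hypoxia, against 36.7 and 37.6 CPM in normoxia (-1.16 ± 0.14, adjusted p = 1.15e-05), opposite to CA9 above. CA12, a surface enzyme, had 11.1 and 10.6 CPM in hypoxia, against 6.25 and 7.74 CPM in normoxia (0.63 ± 0.15, adjusted p = 0.00372), a call lost without normoxia library A. The proton pump subunit ATP6V0A1 had 108 and 111 CPM in hypoxia, against 60.5 and 62.7 CPM in normoxia (0.83 ± 0.15, adjusted p = 0.000417).

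Among genes of the mitochondrion more members fell than rose in each list. Of 23 respiratory chain isoforms and assembly factors 13 fell and 0 rose, with a median of -0.395, beside 20.0% of all genes that fell. CYCS, cytochrome c, had 60.4 and 49.3 CPM in hypoxia, against 161 and 137 CPM in normoxia (-1.44 ± 0.15, adjusted p = 3.67e-06). NDUFAF4, which helps assemble complex I, had 10.9 and 12.5 CPM in hypoxia, against 33.8 and 28 CPM in normoxia (-1.39 ± 0.18, adjusted p = 2.35e-05). SCO1 (-1.09 ± 0.12, adjusted p = 5.19e-06) and HIGD1A (-1.10 ± 0.17, adjusted p = 0.000123) fell as well, without overlap. HIGD1A is known as a hypoxia-induced gene in other cells, and here both of its hypoxic libraries, at 26.5 and 35.7 CPM in hypoxia, against 71 and 62.5 CPM in normoxia, were the lower ones.

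Of 67 proteins of the mitochondrial ribosome 47 fell and 1 rose, with a median of -0.603, and 29 fell without normoxia library A. MRPS16 had 46.7 and 45.5 CPM in hypoxia, against 99.4 and 95.2 CPM in normoxia (-1.08 ± 0.11, adjusted p = 2.48e-06), and MRPL47 had 20.5 and 21.4 CPM in hypoxia, against 56.1 and 47.8 CPM in normoxia (-1.31 ± 0.15, adjusted p = 7.06e-06). MRPL20 (-1.34 ± 0.16, adjusted p = 9.45e-06) and MRPL46 (-1.09 ± 0.14, adjusted p = 2.65e-05) changed by similar amounts. The list took 0.389 and 0.381% of all counts in hypoxia, against 0.685 and 0.606% in normoxia.

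Mitochondrial import and chaperones had 17 of 24 members lower and 1 higher, with a median of -0.553 and 11 lower without normoxia library A. TIMM23, the channel of the inner membrane, had 15.6 and 22.4 CPM in hypoxia, against 51.3 and 42.2 CPM in normoxia (-1.30 ± 0.16, adjusted p = 1.38e-05). TIMM10 (-1.45 ± 0.20, adjusted p = 4.13e-05) and TIMM17A (-1.01 ± 0.14, adjusted p = 2.99e-05) fell too. TFAM, which packs and transcribes mitochondrial DNA, had 31.3 and 35.4 CPM in hypoxia, against 64.3 and 70 CPM in normoxia (-1.01 ± 0.15, adjusted p = 7.44e-05). All 4 were lower in both hypoxic libraries.

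Nuclear-encoded subunits of the respiratory complexes changed less: 12 of 38 fell and 1 rose, with a median of -0.206. The count that fell was 20 with library totals and 7 without normoxia library A. ATP5G1, a ring subunit of ATP synthase, had 69.4 and 82.6 CPM in hypoxia, against 158 and 159 CPM in normoxia (-1.06 ± 0.13, adjusted p = 1.12e-05). ATP5G3 (-0.84 ± 0.12, adjusted p = 6.59e-05), NDUFS1 (-0.74 ± 0.13, adjusted p = 0.000241) and UQCRFS1 (-0.71 ± 0.12, adjusted p = 0.000191) fell by less than 1 on the log2 scale. In the TCA cycle, 7 of 20 members fell and 2 rose, with a median of -0.179. IDH3A, a subunit of isocitrate dehydrogenase, had 47.9 and 56.2 CPM in hypoxia, against 107 and 94.5 CPM in normoxia (-0.95 ± 0.14, adjusted p = 6.94e-05), with 38.2% of its exons shared with ACSBG1. FH (-0.81 ± 0.14, adjusted p = 0.000333), SUCLA2 (-0.74 ± 0.14, adjusted p = 0.000459) and DLST (-0.52 ± 0.11, adjusted p = 0.00158) were the other members with the smallest p.

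Nucleotide synthesis had 11 of 22 members lower and 1 higher, with a median of -0.467, and 17 were lower with library totals. CTPS1, which makes CTP, had 32.3 and 24.3 CPM in hypoxia, against 131 and 109 CPM in normoxia (-2.09 ± 0.19, adjusted p = 6.04e-07), the lowest hypoxic levels relative to normoxia among the 4 named here. PRPS1 (-0.94 ± 0.13, adjusted p = 4.71e-05), UMPS (-0.87 ± 0.13, adjusted p = 0.000102) and DCK (-0.69 ± 0.13, adjusted p = 0.000723) fell by smaller amounts. Serine, glycine and folate genes had 4 of 20 higher and 6 lower (3 lower without normoxia library A) and a median of -0.171. The shares were 20.0% higher and 30.0% lower, beside 20.7% and 20.0% of all genes tested. PSAT1, of serine synthesis, had 46.6 and 44.4 CPM in hypoxia, against 121 and 89 CPM in normoxia (-1.21 ± 0.15, adjusted p = 1.91e-05), and SHMT1 fell (-0.87 ± 0.15, adjusted p = 0.000239), whereas the glycine cleavage gene AMT rose (1.44 ± 0.18, adjusted p = 1.91e-05). In glutamine and amino acid transport 2 of 17 rose (11.8%) and 3 fell (17.6%), both below the shares of all genes tested, with a median of -0.117. The count that fell was 5 with all genes of at least 1 count, 5 with a replicate block and 7 with library totals. SLC1A4, a neutral amino acid carrier, had 4.59 and 3.41 CPM in hypoxia, against 12 and 10.4 CPM in normoxia (-1.49 ± 0.31, adjusted p = 0.00145), and the aminotransferase GOT2 fell (-0.61 ± 0.13, adjusted p = 0.0019). The calls of GOT1 (-0.39 ± 0.13, adjusted p = 0.0195) and SLC38A2 (0.80 ± 0.25, adjusted p = 0.0179) were each lost without normoxia library A, GOT1 also without hypoxia library A and SLC38A2 also without hypoxia library B or with library totals.

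Lipid storage genes rose, with 9 of 15 higher (5 without hypoxia library A) and 2 lower and a median of 0.666. HILPDA, a lipase inhibitor of lipid droplets, had 188 and 274 CPM in hypoxia, against 25 and 24.3 CPM in normoxia (3.23 ± 0.21, adjusted p = 2.48e-08). PLIN2, a droplet coat protein, had 47.5 and 48.7 CPM in hypoxia, against 23.4 and 23.2 CPM in normoxia (1.05 ± 0.14, adjusted p = 3.35e-05), and LPIN2 rose (1.31 ± 0.14, adjusted p = 4.52e-06). ABHD5, an activator of triglyceride breakdown, had 11.7 and 12.3 CPM in hypoxia, against 27.5 and 25.6 CPM in normoxia (-1.15 ± 0.16, adjusted p = 4.86e-05). The inhibitor of breakdown was thus higher and the activator lower in both hypoxic libraries.

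Sterol and fatty acid synthesis had 4 of 24 members higher and 7 lower, and a median of -0.199. The shares were 16.7% higher and 29.2% lower, beside 20.7% and 20.0% of all genes tested. The count that fell was 12 with library totals, 3 without hypoxia library B and 3 without normoxia library A. INSIG2, a brake on sterol synthesis, had 112 and 153 CPM in hypoxia, against 11.1 and 11.8 CPM in normoxia (3.53 ± 0.24, adjusted p = 3.30e-08). INSIG1, its relative, had 162 and 181 CPM in hypoxia, against 90.9 and 65.9 CPM in normoxia (1.13 ± 0.20, adjusted p = 0.000372). SCD, a fatty acid desaturase that uses oxygen, had 3433 and 3184 CPM in hypoxia, against 1801 and 1739 CPM in normoxia (0.90 ± 0.16, adjusted p = 0.000315). Both INSIG genes and the desaturase were thus higher in both hypoxic libraries. In iron and heme metabolism 4 of 18 rose (2 with library totals, 2 without normoxia library A) and 4 fell. The median was 0.104, and -0.0956 with library totals. The shares of 22.2% in each direction are near the 20.7% and 20.0% of all genes tested. TFRC, the transferrin receptor, had 153 and 118 CPM in hypoxia, against 360.3 and 332 CPM in normoxia (-1.35 ± 0.16, adjusted p = 8.10e-06). BLVRB (0.83 ± 0.15, adjusted p = 0.000376) and STEAP3 (0.65 ± 0.13, adjusted p = 0.000734) rose, and FECH, which completes heme, fell (-0.60 ± 0.13, adjusted p = 0.00139).

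Secreted signals to vessels rose, with 15 of 21 higher and 3 lower and a median of 1.93. The 3 lower were 1 with a filter of 5 CPM, 0 without hypoxia library B and 1 without normoxia library A. PDGFA, a growth factor chain, had 291 and 423 CPM in hypoxia, against 22.7 and 23.5 CPM in normoxia (3.95 ± 0.24, adjusted p = 1.02e-08). The list took 0.351 and 0.330% of all counts in hypoxia, against 0.0506 and 0.0464% in normoxia. Collagen hydroxylases and matrix genes had 10 of 20 higher and 0 lower, with a median of 1.08. LOXL2, a collagen crosslinking oxidase, had 592 and 541 CPM in hypoxia, against 62.5 and 72.5 CPM in normoxia (3.07 ± 0.19, adjusted p = 1.19e-08). PLOD2, which hydroxylates collagen lysines, had 152 and 187 CPM in hypoxia, against 24.8 and 27.1 CPM in normoxia (2.71 ± 0.18, adjusted p = 3.38e-08). LAMB3, a laminin chain of epithelial basement membrane, had 369.6 and 268 CPM in hypoxia, against 49.3 and 57.9 CPM in normoxia (2.57 ± 0.20, adjusted p = 1.65e-07). Each had both hypoxic libraries several times above both normoxic ones.

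Growth factor signalling of the EGF family had 5 of 13 members higher and 2 lower, with a median of 0.0464 that was -0.153 with library totals. TGFA, a ligand of the EGF receptor, had 204 and 271 CPM in hypoxia, against 55.5 and 53.3 CPM in normoxia (2.13 ± 0.14, adjusted p = 3.03e-08). EGFR, the receptor, had 172 and 174 CPM in hypoxia, against 64.9 and 69.9 CPM in normoxia (1.36 ± 0.18, adjusted p = 2.04e-05). ERRFI1, a feedback inhibitor of that receptor, had 3116 and 3803 CPM in hypoxia, against 369 and 492 CPM in normoxia (3.01 ± 0.21, adjusted p = 4.31e-08). The ligand, the receptor and its inhibitor were thus all higher in both hypoxic libraries, and a further ligand, AREG, rose too (1.00 ± 0.20, adjusted p = 0.000745). The family took 0.366 and 0.446% of all counts in hypoxia, against 0.0878 and 0.107% in normoxia. Most of that was ERRFI1, with 0.293 and 0.363% in hypoxia, against 0.0395 and 0.0541% in normoxia. In the TGF-beta family 8 of 20 rose (4 with library totals, 4 without normoxia library A) and 1 fell with a median of 0.441. SMAD3, a transducer, had 292 and 272 CPM in hypoxia, against 102 and 102 CPM in normoxia (1.46 ± 0.14, adjusted p = 1.34e-06), and the ligand TGFB3 rose (1.33 ± 0.25, adjusted p = 0.000528). ID1 had 741 and 865 CPM in hypoxia, against 303 and 415 CPM in normoxia (1.16 ± 0.16, adjusted p = 3.06e-05), and its relative ID3 had 45.4 and 61.4 CPM in hypoxia, against 131 and 202 CPM in normoxia (-1.64 ± 0.21, adjusted p = 1.59e-05). These related inhibitors of transcription thus moved in opposite directions.

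NF-kB and cytokine genes had 9 of 19 higher and 3 lower with a median of 0.324, and the 3 lower were 0 without hypoxia library B, 0 without normoxia library A and 1 without normoxia library B. CXCR4, a chemokine receptor (chromosome 2, 136871919 to 136876747), had 9.73 and 20.7 CPM in hypoxia, against 0.246 and 0.406 CPM in normoxia (5.49 ± 0.40, adjusted p = 7.26e-08), where hypoxia library B was well above library A. LIF, a cytokine of the IL6 family, had 476 ± 47.3 CPM in hypoxia and 156 ± 18.1 CPM in normoxia (SD, n = 2 each) (1.61 ± 0.15, adjusted p = 9.82e-07). NFKB2 (1.51 ± 0.15, adjusted p = 1.26e-06) and the apoptosis inhibitor BIRC3 (1.99 ± 0.23, adjusted p = 7.21e-06) rose as well. Interferon-stimulated genes had 4 of 21 higher and 3 lower and a median of -0.368. Neither share exceeded the 20.7% higher and 20.0% lower of all genes tested. The 4 higher were 2 with library totals, without hypoxia library B or without normoxia library A. The 3 lower were 6 with library totals, 5 with all genes of at least 1 count or a replicate block, 1 without normoxia library B and 0 without hypoxia library B or normoxia library A. ISG20 (1.61 ± 0.22, adjusted p = 3.59e-05) and IRF7 (1.62 ± 0.26, adjusted p = 0.000142) kept their calls, and those of STAT2 (0.56 ± 0.16, adjusted p = 0.00983) and IFIT1 (-0.97 ± 0.28, adjusted p = 0.0119) were lost without hypoxia library B or normoxia library A, that of STAT2 also with library totals.

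Oxygen-dependent demethylases and hydroxylases, not all of them acting on chromatin, rose, with 15 of 23 members higher and 2 lower and a median of 0.678. KDM4B, a demethylase of histone H3, had 259.8 and 206 CPM in hypoxia, against 47.2 and 48 CPM in normoxia (2.29 ± 0.16, adjusted p = 4.61e-08). KDM4C had 53.6 and 50.3 CPM in hypoxia, against 18.5 and 20.6 CPM in normoxia (1.41 ± 0.12, adjusted p = 4.04e-07). C14orf169, a nucleolar oxygenase, went the other way, with 1.48 and 1.92 CPM in hypoxia and 9.98 and 8.93 CPM in normoxia (-2.47 ± 0.21, adjusted p = 3.54e-07). Immediate early factors rose in 24 of 28 members, with 1 lower and a median of 1.37. FOSL2, an AP-1 subunit, had 289.9 and 261 CPM in hypoxia, against 29.4 and 30.8 CPM in normoxia (3.19 ± 0.15, adjusted p = 1.38e-09). KLF4 had 142 and 185 CPM in hypoxia, against 26.8 and 30.8 CPM in normoxia (2.50 ± 0.16, adjusted p = 1.81e-08). MAFF (2.30 ± 0.14, adjusted p = 8.28e-09) and the MAP kinase phosphatase DUSP1 (2.88 ± 0.18, adjusted p = 1.19e-08) rose too. JUN and EGR1, chosen after their values were seen, differed between the hypoxic libraries themselves: JUN had 84.7 and 25.3 CPM in hypoxia, against 16.8 and 17.5 CPM in normoxia, and EGR1 had 327 and 133 CPM in hypoxia, against 97 and 122 CPM in normoxia.

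Clock genes rose in 9 of 17 members, with 0 lower and a median of 0.665. BHLHE40, a repressor in the clock and a known HIF target, had 866 and 746 CPM in hypoxia, against 89.5 and 82.6 CPM in normoxia (3.23 ± 0.16, adjusted p = 1.81e-09). PER1, a clock repressor, had 559 and 691 CPM in hypoxia, against 107 and 98.7 CPM in normoxia (2.61 ± 0.27, adjusted p = 3.21e-06). The BHLHE40 relative BHLHE41 (2.07 ± 0.23, adjusted p = 4.54e-06) and the output factor DBP (1.93 ± 0.22, adjusted p = 5.56e-06) rose as well.

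In the MYC and MAX network 7 of 14 rose (4 without normoxia library A) and 0 fell, with a median of 0.427. MXI1, a MAX partner that opposes MYC, had 289 and 416 CPM in hypoxia, against 54.4 and 69.8 CPM in normoxia (2.51 ± 0.24, adjusted p = 1.24e-06). MXD1, of the same class, had 20.7 and 24.6 CPM in hypoxia, against 3.30 and 4.08 CPM in normoxia (2.61 ± 0.30, adjusted p = 7.21e-06), and MNT, another antagonist, had 100.5 and 86.8 CPM in hypoxia, against 35.3 and 38.4 CPM in normoxia (1.35 ± 0.21, adjusted p = 0.00013). MYC itself had 599 and 558 CPM in hypoxia, against 348 and 402 CPM in normoxia (0.63 ± 0.15, adjusted p = 0.00329), a call lost without normoxia library A (adjusted p = 0.0535). These 3 antagonists had higher log2 fold changes than MYC, a difference that was not tested. Per kb of exon MYC made up 53 and 47.2% in hypoxia, against 67.5 and 67.5% in normoxia of the 6 MAX partners measured. MXI1 made up 26.4 and 36.4% in hypoxia, against 10.9 and 12.1% in normoxia of them. MGA rose (0.63 ± 0.14, adjusted p = 0.00228), and MXD4 (0.72 ± 0.20, adjusted p = 0.00885) and MLXIPL (0.50 ± 0.14, adjusted p = 0.00962) were called but lost the call with library totals, without hypoxia library A or without normoxia library A. MAX (-0.06 ± 0.12, adjusted p = 0.744), MXD3 (0.36 ± 0.18, adjusted p = 0.128), MLX (-0.03 ± 0.13, adjusted p = 0.869), MLXIP (-0.21 ± 0.20, adjusted p = 0.424), MYCBP (-0.46 ± 0.38, adjusted p = 0.354), MYCL1 (-0.57 ± 0.22, adjusted p = 0.0513) and ZBTB17 (0.03 ± 0.15, adjusted p = 0.898) were not called.

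The mTORC1 and insulin signalling list, which holds brakes and other parts of the pathway alike, had 9 of 21 members higher and 3 lower. Its median was 0.298. DDIT4, which inhibits mTORC1 through the TSC complex (chromosome 10, 74033678 to 74035794), had 2092 and 2479 CPM in hypoxia, against 61.3 and 44.8 CPM in normoxia (5.43 ± 0.24, adjusted p = 5.35e-10). IGFBP3, which binds insulin-like growth factors, had 42.7 and 27.4 CPM in hypoxia, against 1.39 and 1.62 CPM in normoxia (4.53 ± 0.29, adjusted p = 1.81e-08). IRS2, an adaptor of the insulin receptor, had 96.7 and 127 CPM in hypoxia, against 17.4 and 19.3 CPM in normoxia (2.61 ± 0.20, adjusted p = 1.31e-07). Each of the 3 was higher in both hypoxic libraries by several times. Mitophagy and autophagy genes had 7 of 21 higher (4 without normoxia library A) and 4 lower (2 without hypoxia library B, 2 without normoxia library B), with a median of 0.334. BNIP3L, a mitophagy receptor beside BNIP3, had 294 and 332 CPM in hypoxia, against 38.3 and 42.4 CPM in normoxia (2.95 ± 0.19, adjusted p = 1.71e-08). PINK1 (0.97 ± 0.18, adjusted p = 0.000416) and GABARAPL1 (0.88 ± 0.17, adjusted p = 0.000681) rose by under 1 on the log2 scale.

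Chaperones went in opposite directions by compartment. In the endoplasmic reticulum 12 of 21 members rose and 2 fell, with a median of 0.611. ERO1L, the oxidase that forms disulfides there, had 222 and 231 CPM in hypoxia, against 54.5 and 53.4 CPM in normoxia (2.07 ± 0.13, adjusted p = 1.19e-08). EDEM1 (1.77 ± 0.21, adjusted p = 1.08e-05), HERPUD1 (1.61 ± 0.23, adjusted p = 4.63e-05) and the disulfide isomerase P4HB (0.86 ± 0.14, adjusted p = 0.000135) rose, and ERO1LB was not called (0.61 ± 0.29, adjusted p = 0.102). In the cytosol 15 of 22 fell and 0 rose, with a median of -0.824. HSPA8, the constitutive HSP70, had 496 and 662 CPM in hypoxia, against 1791 and 1819 CPM in normoxia (-1.64 ± 0.20, adjusted p = 1.40e-05). HSPH1, its exchange factor, had 45.5 and 49.4 CPM in hypoxia, against 193 and 199 CPM in normoxia (-2.04 ± 0.23, adjusted p = 5.38e-06). DNAJA1 (-1.73 ± 0.14, adjusted p = 1.84e-07) and HSPA4 (-1.17 ± 0.13, adjusted p = 4.46e-06) fell as well. The cytosolic list took 0.687 and 0.730% of counts in hypoxia, against 1.28 and 1.22% in normoxia.

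The integrated stress response had 6 of 22 members higher and 3 lower (5 with library totals), with a median of 0.0803 that was -0.116 with library totals. The shares were 27.3% higher and 13.6% lower, beside 20.7% and 20.0% of all genes tested. DDIT3, a factor of that response, had 43.6 and 78.3 CPM in hypoxia, against 14 and 13.4 CPM in normoxia (2.15 ± 0.29, adjusted p = 3.28e-05), where hypoxia library B was the higher. ATF3 had 31.3 and 40.3 CPM in hypoxia, against 8.93 and 8.31 CPM in normoxia (2.06 ± 0.20, adjusted p = 1.59e-06). WARS, the tryptophanyl-tRNA synthetase, had 45.1 and 37.2 CPM in hypoxia, against 90.1 and 70 CPM in normoxia (-0.96 ± 0.16, adjusted p = 0.00021), lower in both hypoxic libraries.

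DNA replication, DNA repair and ribosome assembly had the largest shares of members called lower. Of 28 genes of RNA polymerase I and ribosome assembly 21 fell and 1 rose, with a median of -0.829. NIP7, an assembly factor, had 30.9 and 30.6 CPM in hypoxia, against 109 and 96.7 CPM in normoxia (-1.74 ± 0.13, adjusted p = 6.98e-08). RRS1, which brings 5S RNA particles to the ribosome, had 18.4 and 12.6 CPM in hypoxia, against 99.4 and 75.1 CPM in normoxia (-2.49 ± 0.36, adjusted p = 5.20e-05). NOP58 (-1.25 ± 0.14, adjusted p = 5.27e-06), PNO1 (-1.43 ± 0.15, adjusted p = 4.07e-06) and UTP20 (-1.01 ± 0.14, adjusted p = 3.98e-05) fell as well. None of these 5 overlapped between groups.

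Of 30 origin licensing and fork genes 26 fell and 0 rose, with a median of -1.37, the lowest of the 45 lists. CLSPN, a fork checkpoint protein, had 11.4 and 4.99 CPM in hypoxia, against 59.8 and 53.4 CPM in normoxia (-2.79 ± 0.29, adjusted p = 2.63e-06). PCNA, the sliding clamp, had 90 and 94.3 CPM in hypoxia, against 292 and 258 CPM in normoxia (-1.58 ± 0.17, adjusted p = 5.16e-06). MCM6, a helicase subunit, had 84.7 and 69.6 CPM in hypoxia, against 251 and 243 CPM in normoxia (-1.68 ± 0.16, adjusted p = 1.19e-06). GMNN, which limits licensing, had 22.4 and 22.8 CPM in hypoxia, against 65.4 and 65.2 CPM in normoxia (-1.53 ± 0.15, adjusted p = 1.66e-06). The hypoxic libraries were the lower ones throughout, and the list took 0.232 and 0.186% of counts in hypoxia, against 0.541 and 0.492% in normoxia. In bulk RNA, fewer cells in S phase and less of these mRNAs per cell cannot be told apart.

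DNA repair fell in 24 of 28 members with 0 higher and a median of -0.911. MSH6, a mismatch repair gene, had 42.6 and 39.1 CPM in hypoxia, against 86.8 and 81.7 CPM in normoxia (-1.04 ± 0.13, adjusted p = 1.49e-05). XRCC2, of homologous recombination, had 5.80 and 4.86 CPM in hypoxia, against 18 and 18.1 CPM in normoxia (-1.76 ± 0.20, adjusted p = 6.47e-06), and RBBP8, of end resection, fell (-1.18 ± 0.15, adjusted p = 2.42e-05). Mitosis genes moved less, with 3 of 24 higher and 6 lower and a median of -0.241. The 6 lower were 13 with library totals, 10 with a replicate block and 0 without hypoxia library A or normoxia library A. The 3 higher were 1 with library totals or without hypoxia library B and 0 without normoxia library B. UBE2C (0.66 ± 0.19, adjusted p = 0.00983) was called higher and KIF23 (-0.55 ± 0.16, adjusted p = 0.0114), FOXM1 (-0.79 ± 0.23, adjusted p = 0.012) and MAD2L1 (-0.65 ± 0.19, adjusted p = 0.0122) lower, and each lost its call when a library was left out, UBE2C without normoxia library B and the others without hypoxia library A or normoxia library A, MAD2L1 also without normoxia library B.

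Among cyclins and cell cycle regulators 13 of 27 fell and 6 rose, with a median of -0.588. The E-type cyclins, which drive entry into S phase, fell. CCNE2 had 4.17 and 2.68 CPM in hypoxia, against 22.1 and 25 CPM in normoxia (-2.78 ± 0.24, adjusted p = 4.11e-07), with 37% of its exons shared with INTS8, and CCNE1 had 14.3 and 10.9 CPM in hypoxia, against 46.5 and 50.8 CPM in normoxia (-1.95 ± 0.18, adjusted p = 8.52e-07). CCND3 fell (-1.17 ± 0.22, adjusted p = 0.000647), while CCND1, cyclin D1, had 864 and 764 CPM in hypoxia and 684 and 683 CPM in normoxia and was not called (0.25 ± 0.17, adjusted p = 0.252). The phosphatase CDC25A, which activates their kinases, had 10.5 and 6.58 CPM in hypoxia, against 52.3 and 48.7 CPM in normoxia (-2.56 ± 0.29, adjusted p = 6.26e-06). E2F1 had 23.3 and 12.5 CPM in hypoxia, against 66.8 and 65.3 CPM in normoxia (-1.88 ± 0.28, adjusted p = 6.87e-05), and E2F2 (-1.60 ± 0.32, adjusted p = 0.000884), E2F3 (-1.02 ± 0.16, adjusted p = 0.000146), RBL1 (-1.44 ± 0.19, adjusted p = 2.67e-05), SKP2 (-1.09 ± 0.14, adjusted p = 1.81e-05), CCNB1 (-0.76 ± 0.14, adjusted p = 0.00044) and CDK4 (-0.59 ± 0.14, adjusted p = 0.00284) fell with it.

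Inhibitors of cyclin-dependent kinases mostly moved the other way. CDKN1C had 57.3 and 43.9 CPM in hypoxia, against 14.8 and 16.1 CPM in normoxia (1.71 ± 0.18, adjusted p = 3.06e-06). CDKN1B, p27, had 79.4 and 82.3 CPM in hypoxia, against 39.9 and 36.8 CPM in normoxia (1.08 ± 0.12, adjusted p = 7.35e-06). CDKN1A, p21, had 331 and 322 CPM in hypoxia, against 189 and 187 CPM in normoxia (0.79 ± 0.12, adjusted p = 9.50e-05). CDKN2B (1.04 ± 0.19, adjusted p = 0.00041) and CDKN2D (0.74 ± 0.17, adjusted p = 0.00227) rose as well, while CDKN2A (0.04 ± 0.17, adjusted p = 0.888) and CDKN2C (-0.39 ± 0.33, adjusted p = 0.356) were not called. CDK6 was called higher (0.68 ± 0.18, adjusted p = 0.0062) and CDK2 (-0.61 ± 0.16, adjusted p = 0.00608) and E2F7 (-0.64 ± 0.17, adjusted p = 0.0073) lower, and all 3 calls were lost without hypoxia library B or normoxia library A, that of CDK6 also with library totals. CCNA2 (-0.40 ± 0.18, adjusted p = 0.0968), CDK1 (-0.45 ± 0.19, adjusted p = 0.0742), RB1 (-0.18 ± 0.16, adjusted p = 0.391), RBL2 (0.54 ± 0.22, adjusted p = 0.0566) and E2F8 (-0.68 ± 0.27, adjusted p = 0.0545) were not called.

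Targets of p53 and apoptosis genes had 10 of 25 higher (6 without normoxia library A) and 5 lower (3 without normoxia library B). The median was 0.246. The share called lower was 20.0%, the same as among all genes tested, of which 20.7% were called higher. GDF15, a secreted stress cytokine, had 401 and 456 CPM in hypoxia, against 82.9 and 98.7 CPM in normoxia (2.24 ± 0.13, adjusted p = 9.52e-09). C12orf5, which encodes the fructose bisphosphatase TIGAR, had 2.52 and 3.01 CPM in hypoxia, against 16.6 and 13.5 CPM in normoxia (-2.44 ± 0.20, adjusted p = 2.85e-07). The pore protein BAK1 fell (-1.01 ± 0.14, adjusted p = 4.34e-05). Wnt feedback genes had 2 of 15 higher and 6 lower (3 without hypoxia library A, 3 without normoxia library B), with a median of -0.347. AXIN2, the standard readout of that pathway, had 6.66 and 9.03 CPM in hypoxia, against 17.6 and 21.3 CPM in normoxia (-1.31 ± 0.17, adjusted p = 2.65e-05). TCF7 (-1.30 ± 0.21, adjusted p = 0.000173) and SP5 (-1.38 ± 0.27, adjusted p = 0.000758) fell, and the receptor EPHB3 rose (0.85 ± 0.15, adjusted p = 0.000277).

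**Figure D4:**
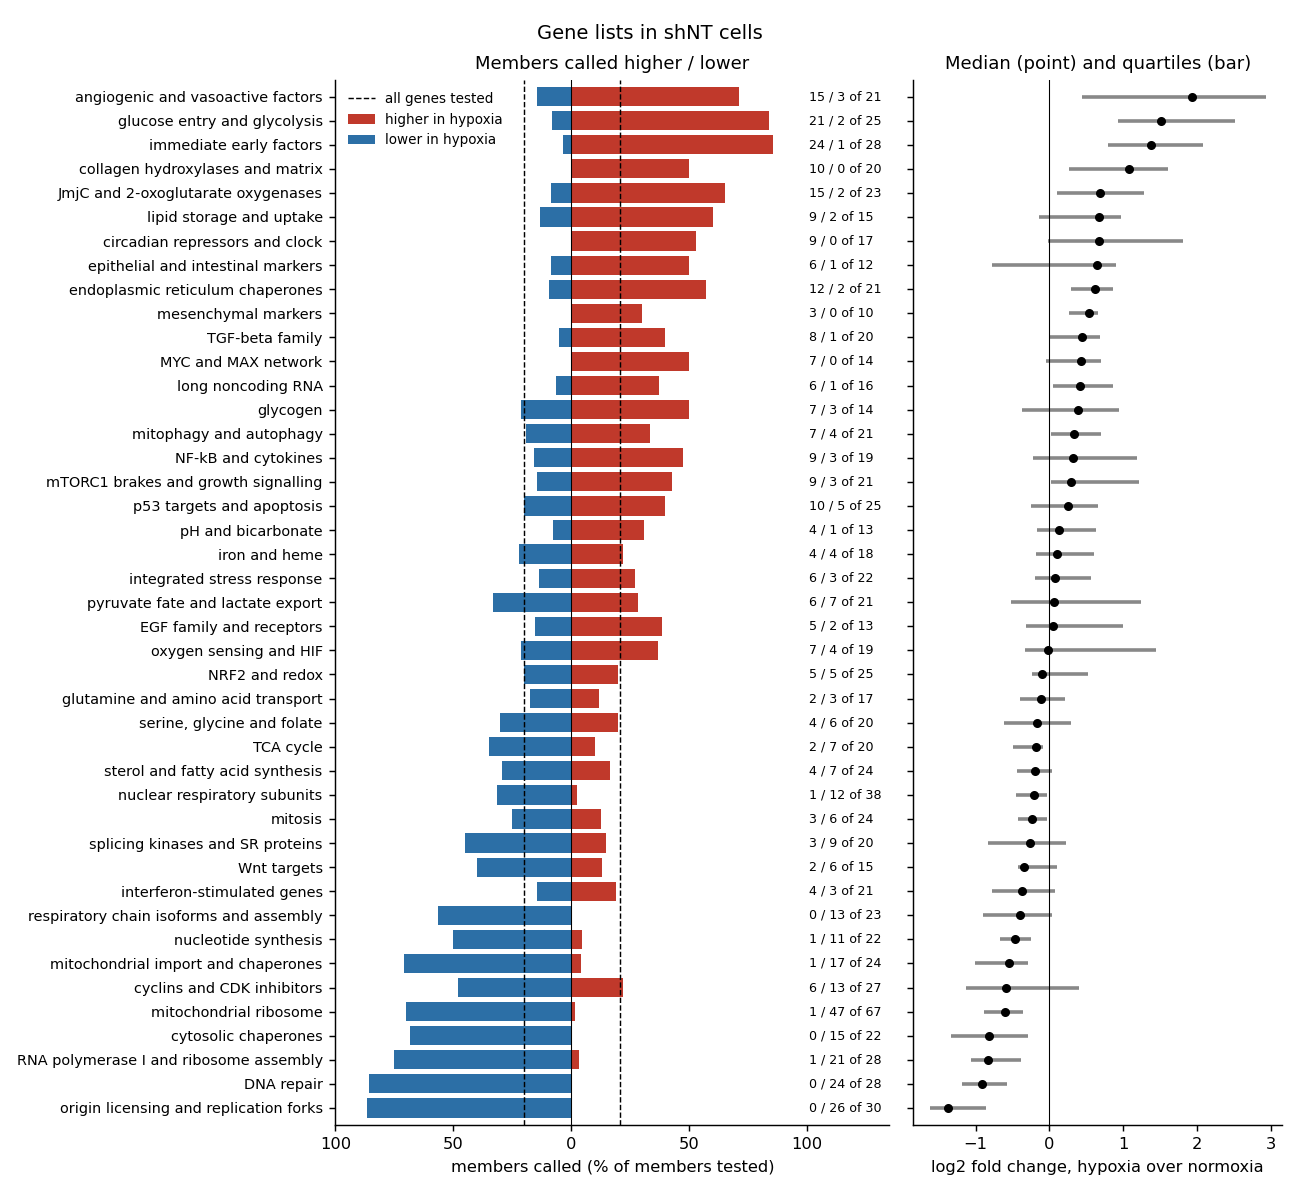
Members called in each gene list, apart from the panel and the blood and endothelial markers, as a share of members tested (left, higher in hypoxia in red and lower in blue, with counts higher / lower of tested, dashed lines at the 20.7% and 20.0% of all genes tested) and the median and quartiles of log2 fold changes of hypoxia over normoxia (right). Angiogenic factors, glycolysis and immediate early factors stand at the top of the lists drawn, and replication, DNA repair and ribosome assembly at the bottom.

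Markers of differentiation moved within the epithelial profile, with 6 of 12 members higher and 1 lower and a median of 0.638. ELF3, an epithelial transcription factor, had 830.0 and 720.0 CPM in hypoxia, against 87.5 and 110.3 CPM in normoxia (2.97 ± 0.19, adjusted p = 1.35e-08). CDH1, E-cadherin, had 209 and 202 CPM in hypoxia, against 64.8 and 69.7 CPM in normoxia (1.61 ± 0.18, adjusted p = 4.88e-06), and KRT19 had 5051 and 3591 CPM in hypoxia, against 1680.1 and 1637 CPM in normoxia (1.38 ± 0.16, adjusted p = 9.23e-06). KRT20, a keratin of mature colon cells, had 0.932 and 0.430 CPM in hypoxia, against 4.10 and 5.85 CPM in normoxia (-2.88 ± 0.46, adjusted p = 0.000149). Of mesenchymal markers 3 of 10 rose (5 with a replicate block) and 0 fell, among them COL1A1 (1.22 ± 0.14, adjusted p = 8.09e-06), ACTA2 (1.26 ± 0.18, adjusted p = 5.19e-05) and VIM (0.48 ± 0.17, adjusted p = 0.035), whose call was lost under 7 alternatives, including without hypoxia library A or either normoxic library. Of blood and endothelial markers 0 of 5 were called.

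Splicing regulators had 3 of 20 higher and 9 lower, with a median of -0.26. SRSF3 had 114 and 117 CPM in hypoxia, against 359 and 314 CPM in normoxia (-1.55 ± 0.13, adjusted p = 2.35e-07), and SRSF7 (-1.23 ± 0.12, adjusted p = 1.35e-06) and TRA2B (-1.38 ± 0.14, adjusted p = 1.59e-06) fell too, whereas CLK3, a kinase of these proteins, had 123 and 124 CPM in hypoxia, against 45.3 and 39.7 CPM in normoxia (1.54 ± 0.14, adjusted p = 9.31e-07). Long noncoding RNAs had 6 of 16 higher and 1 lower, with a median of 0.412. MIR210HG, the host transcript of the hypoxia microRNA miR-210, had 74.6 and 52 CPM in hypoxia, against 6.10 and 3.61 CPM in normoxia (3.72 ± 0.34, adjusted p = 7.46e-07). H19 (1.66 ± 0.35, adjusted p = 0.0015), KCNQ1OT1 (0.99 ± 0.22, adjusted p = 0.00239) and TUG1 (0.65 ± 0.15, adjusted p = 0.00325) were called higher, TUG1 not without hypoxia library B. NRF2 and redox genes had 5 of 25 higher and 5 lower, with a median of -0.105. These shares of 20.0% each are near the 20.7% higher and 20.0% lower of all genes tested. The 5 higher were 2 with library totals and 3 without normoxia library B. The 5 lower were 9 with library totals and 1 without normoxia library A. ARRDC3, an alpha-arrestin, had 186 and 287 CPM in hypoxia, against 15.4 and 13.9 CPM in normoxia (4.01 ± 0.25, adjusted p = 1.19e-08). KEAP1, the brake on NRF2, fell (-0.81 ± 0.17, adjusted p = 0.00159), AKR1C1 rose (1.76 ± 0.38, adjusted p = 0.00158), and the SOD2 call (-0.53 ± 0.13, adjusted p = 0.00446) was lost without normoxia library A.

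Among the 15 genes with the highest fold changes at 5 CPM or more, 2 remain to be named. C4orf47 had 8.04 and 8.96 CPM in hypoxia, against 0.277 and 0.502 CPM in normoxia (4.40 ± 0.35, adjusted p = 1.89e-07), and FAM13A-AS1, an antisense RNA whose reads cannot be told from its partner's, had 8.87 and 6.35 CPM in hypoxia, against 0.493 and 0.549 CPM in normoxia (3.85 ± 0.30, adjusted p = 1.41e-07). Among the 15 with the lowest, RPS6KL1, a kinase-like protein, had 1.00 and 1.06 CPM in hypoxia, against 11.1 and 8.65 CPM in normoxia (-3.25 ± 0.38, adjusted p = 7.56e-06). LONRF2 had 2.59 and 1.12 CPM in hypoxia, against 12.7 and 16.3 CPM in normoxia (-2.97 ± 0.32, adjusted p = 4.35e-06), and CHAC2, an enzyme of glutathione breakdown, had 2.59 and 1.42 CPM in hypoxia, against 15.4 and 12.4 CPM in normoxia (-2.79 ± 0.27, adjusted p = 1.46e-06). FAM111B, a trypsin-like protease, had 3.24 and 1.49 CPM in hypoxia, against 17.2 and 17.2 CPM in normoxia (-2.86 ± 0.33, adjusted p = 6.69e-06). SPRTN, which clears DNA-protein crosslinks, had 3.86 and 3.24 CPM in hypoxia, against 22 and 18.6 CPM in normoxia (-2.51 ± 0.21, adjusted p = 3.35e-07), and AUNIP had 2.66 and 3.84 CPM in hypoxia, against 18.6 and 18 CPM in normoxia (-2.49 ± 0.24, adjusted p = 1.29e-06). The rule that chose these genes required groups without overlap. ADORA1, an adenosine receptor, fell (-2.58 ± 0.35, adjusted p = 3.40e-05), as did TOE1 (-2.64 ± 0.34, adjusted p = 1.88e-05) and GPATCH4 (-2.58 ± 0.33, adjusted p = 2.14e-05), which shares 98.1% of its exons with NAXE.

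The response of shNT cells was set against the mean response of the other 3 lines. It differed in 212 genes (1.37%), with 122 above (0.786%) and 90 below (0.580%). Against single lines the response differed in 5 genes for shTIP60 (0.0322%), 6 for shCDK8 (0.0387%) and 2553 for HIF1A-null (16.4%). The 212 were 116 without hypoxia library A, 32 without hypoxia library B, 17 without normoxia library A and 48 without normoxia library B, so this count rests on every one of the 4 libraries. The comparisons share the shNT libraries.

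Among genes called in this comparison at 5 CPM or more in the highest group, the 5 whose shNT response lay furthest above the mean of the others were CXCR4, SLC2A3, IGFBP3, C4orf47 and GPR110. CXCR4 changed by 5.49 ± 0.40 in shNT, 2.58 ± 0.38 in shTIP60, 4.12 ± 0.40 in shCDK8 and -1.05 ± 0.54 in HIF1A-null, a difference of 3.61 ± 0.48 (adjusted p = 0.0021). SLC2A3 changed by 5.36 ± 0.26, 2.69 ± 0.22, 4.15 ± 0.25 and 2.70 ± 0.23 in the same order, a difference of 2.18 ± 0.26 (adjusted p = 0.000773). IGFBP3 differed by 2.64 ± 0.44 (adjusted p = 0.00926, and 0.073 without normoxia library A), with 4.53 ± 0.29 in shNT and 1.30 ± 0.23 in shTIP60. Of these, SLC2A3 and IGFBP3 also differed from shTIP60 alone, by 2.67 ± 0.31 and 3.23 ± 0.36 (adjusted p = 0.00184 for both). C4orf47 differed by 2.31 ± 0.42 (adjusted p = 0.0139) and GPR110, an adhesion receptor, by 2.10 ± 0.40 (adjusted p = 0.0205). Those 2 genes changed by -0.57 ± 0.45 (C4orf47) and -5.79 ± 1.03 (GPR110) in HIF1A-null, and their shNT responses were called against HIF1A-null and not against shTIP60 or shCDK8. Both calls were lost without hypoxia library B or normoxia library A, that of GPR110 also without normoxia library B or with counts thinned to the shallowest library.

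The 5 genes furthest below, by the same rule, included 3 of sterol synthesis and its control. HMGCS1, which starts the mevalonate pathway, changed by -0.69 ± 0.17 in shNT, 0.57 ± 0.17 in shTIP60, 0.05 ± 0.17 in shCDK8 and 2.96 ± 0.18 in HIF1A-null, a difference of -1.88 ± 0.20 (adjusted p = 0.000706). FDFT1, squalene synthase, changed by -0.55 ± 0.15 in shNT and 2.15 ± 0.16 in HIF1A-null, a difference of -1.61 ± 0.18 (adjusted p = 0.000706). In shNT alone HMGCS1 had 64.7 and 67.4 CPM in hypoxia, against 109.7 and 103 CPM in normoxia (-0.69 ± 0.17, adjusted p = 0.00448) and FDFT1 had 156 and 142 CPM in hypoxia, against 228 and 206 CPM in normoxia (-0.55 ± 0.15, adjusted p = 0.00998), the FDFT1 call lost without hypoxia library B or normoxia library A. INSIG1 rose in every line, by 1.13 ± 0.20 in shNT, 2.56 ± 0.21 in shTIP60, 4.24 ± 0.23 in HIF1A-null and, in shCDK8, about as much as in shNT, with a difference of -1.52 ± 0.23 (adjusted p = 0.00549, and 0.0845 without normoxia library A). HSPH1 differed by -1.47 ± 0.26 (adjusted p = 0.0122) and CCDC64 by -1.46 ± 0.24 (adjusted p = 0.00913). The HSPH1 difference was lost when any of the 4 libraries was left out and that of CCDC64 without hypoxia library B or normoxia library A. In shNT CCDC64 had 10.5 and 6.71 CPM in hypoxia, against 18.4 and 15.9 CPM in normoxia (adjusted p = 0.00141).

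**Figure D5:**
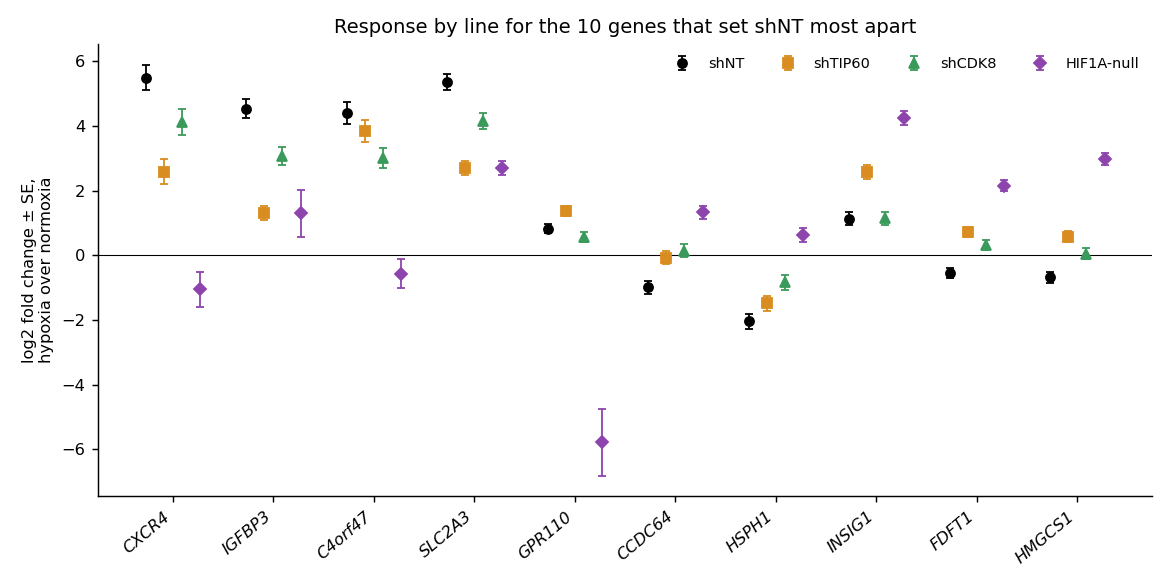
Log2 fold change of hypoxia over normoxia ± SE (vertical axis) in shNT and the other 3 lines for the 5 genes whose shNT response lay furthest above and the 5 furthest below the mean of the others among genes called at 5 CPM or more, each from 2 libraries against 2. CXCR4 changed by 5.49 ± 0.40 in shNT and HMGCS1 by -0.69 ± 0.17, while the HIF1A-null points lie farthest from shNT for most genes.

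Of the 12 panel genes, 6 differed from the mean of the other lines, beside 1.37% of all genes tested. They were ANGPTL4 (2.02 ± 0.23, adjusted p = 0.000748), ANKRD37 (1.66 ± 0.32, adjusted p = 0.0205), EGLN3 (1.48 ± 0.22, adjusted p = 0.00503), BNIP3 (1.31 ± 0.19, adjusted p = 0.00357), KDM3A (0.88 ± 0.21, adjusted p = 0.0483) and P4HA1 (0.87 ± 0.20, adjusted p = 0.0444). That mean includes HIF1A-null. Of the panel only ANGPTL4 was also called against a single knockdown line, shCDK8. ADM and VEGFA had differences of -0.31 ± 0.20 and -0.22 ± 0.17 and were not called. ADM changed by 3.49 ± 0.19 in shNT and 3.37 ± 0.19 in HIF1A-null, and BNIP3 by 3.11 ± 0.17 in shNT and -0.02 ± 0.16 in HIF1A-null.

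The genes that set shNT apart from a single knockdown line were few. Against shTIP60, beside SLC2A3 and IGFBP3, the response differed for PAG1, a membrane adaptor (2.46 ± 0.34, adjusted p = 0.0108), ZNF608 (1.79 ± 0.28, adjusted p = 0.0298) and HMOX1, heme oxygenase (-1.37 ± 0.20, adjusted p = 0.0185). PAG1 had 18.9 and 17.8 CPM in hypoxia, against 3.88 and 3.08 CPM in normoxia in shNT. HMOX1 overlapped between the shNT groups, at 18.5 and 16.7 CPM in hypoxia and 18.4 and 19.4 CPM in normoxia, and changed by 1.27 ± 0.14 in shTIP60. Against shCDK8 the response differed for DUSP1 (2.23 ± 0.24, adjusted p = 0.00147), TFRC (-1.77 ± 0.22, adjusted p = 0.00468), HPCAL1 (1.33 ± 0.18, adjusted p = 0.00762), HOXA4 (2.06 ± 0.32, adjusted p = 0.0296), TNFRSF10D (1.64 ± 0.27, adjusted p = 0.0487) and ANGPTL4 (1.70 ± 0.28, adjusted p = 0.0487). TNFRSF10D, a decoy receptor for TRAIL, had 270.4 and 347 CPM in hypoxia, against 55.3 and 60.9 CPM in normoxia in shNT, HPCAL1, a calcium sensor, had 450.0 and 422 CPM in hypoxia, against 119 and 122 CPM in normoxia, and HOXA4 had 3.80 and 3.70 CPM in hypoxia, against 1.23 and 1.39 CPM in normoxia. ZNF608 had 4.69 and 4.20 CPM in hypoxia, against 1.82 and 1.58 CPM in normoxia. These genes were named because the counts are 6 or fewer, after their values were seen.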

How the data were processed

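The authors deposited whole-number counts of reads for each gene symbol, a column per library and not scaled. GSNAP (2013-10-28), R (3.0.3), DESeq (1.14.0) and HTSeq (0.5.4p5) are named in the submitters' processing notes, with hg19 (GRCh37). The annotation and strand setting are not given in the sources used here. Of 23669 genes, 15520 (65.6%) passed the filter by group (10 counts in enough libraries, 15 in all). All 16 libraries entered a quasi-likelihood fit in edgeR 4.0.16 (R 4.3.3) with TMM factors, robust dispersion and a coefficient per group, leaving 8 residual degrees of freedom at a common biological coefficient of variation of 0.132. The p were two-sided and adjusted by Benjamini-Hochberg, and glmTreat tested against 1.5-fold. The fit was also run on simulated counts with few genes altered, drawn with its own dispersions. Such data do not test the scaling between oxygen levels. Alternatives were RLE factors, library totals, other filters, only the shNT libraries, a replicate block, each library left out, thinning and DESeq2 1.42.0.

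Genes named were the 12 panel genes, the 15 highest and 15 lowest fold changes at 5 CPM or more without overlap, up to 4 called members of least p per list, all members of 4 lists and of the isozyme families, and the 5 responses most above and 5 most below the other lines (called, with a highest group mean of 5 CPM or more). A few of them are not reported here. The members and the 45 lists (991 genes, 932 tested) were chosen with earlier results of these data known, and lists are described by counts and medians only. A floor of 3 counts was 0.0992 to 0.103 CPM in hypoxia and 0.0716 to 0.0924 CPM in normoxia. It covers counting error only. Exon lengths, overlaps and GRCh37 coordinates came from GENCODE release 44, which matched 14822 tested symbols, and printed promoters from RefSeq on GRCh38.p14, which matched 11588, too few for shares over all genes. An exon length is that of all annotated exons of a gene merged, not of the transcripts expressed.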

Additional observations from a re-analysis of the deposited data

Results flagged for a closer look

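The response to hypoxia of 10 named genes in shNT differed, by the test of the difference itself in the edgeR fit, from the mean response of shTIP60, shCDK8 and HIF1A-null. On the log2 scale CXCR4 lay 3.61 above that mean, IGFBP3 2.64, C4orf47 2.31, SLC2A3 2.18 and GPR110 2.10. HMGCS1 lay at -1.88 from it, FDFT1 at -1.61, INSIG1 at -1.52, HSPH1 at -1.47 and CCDC64 at -1.46. The adjusted p ran from 0.000706 to 0.0205, over all 15520 genes tested. For HMGCS1, FDFT1 and CCDC64 shNT fell under hypoxia and HIF1A-null rose, and for CXCR4 shNT rose while HIF1A-null had a value below 0 that was not called. The calls of CXCR4, SLC2A3, HMGCS1 and FDFT1 held when any of the 4 shNT libraries was left out. With 2 libraries per group, no search for outlying libraries within a group was made.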

How the results depend on the processing

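Beside the 6311 genes called, 4104 to 5419 were called with a library left out (4041 to 4990 of them among the 6311), with 2045 to 2767 higher, 2059 to 2652 lower and 1163 to 1792 past 1.5-fold. The 212 response differences were then 17 to 116. With library totals 2116 genes were higher and 4605 lower. DESeq2 called 1281 genes past 1.5-fold and 614 response differences, and all genes with at least 1 count gave 693. With the header number series as a replicate block, 7701 genes were called, 6310 of them among the 6311, with 1075 response differences. The labels do not say whether that number pairs the samples. Differences of library A minus library B correlated positively between all pairs of groups (0.0307 to 0.336), above 0.1 in 18 of 28. Whether the series share an effect was not tested, and no p given above uses that number. The count of a list with the block stands above only where it moved by more than 1.5 times. The causes were not tested. RLE factors, the 5 CPM filter and thinning moved none of these counts by more than 1.5 times, nor did only the shNT libraries, where response differences cannot be had. Of 276 named genes 240 were called, 212 kept call and direction under every alternative that tested them (the 5 CPM filter leaves out the low ones), 28 lost the call in at least 1 and 0 reversed. List medians changed sign with library totals for 5 lists, given above. The limits are 2 libraries per group, a single line, unknown strand setting, and counts without molecular identifiers.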

Other observations

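The shares of genes called in each direction differed by exon number. Among protein-coding genes with 21 or more exons in the canonical GENCODE transcript, 542 of 1903 were called higher (28.5%) and 243 lower (12.8%), with a median change of 0.152. Among those with 2 to 5 exons 629 of 3518 were higher (17.9%) and 849 lower (24.1%), with a median of -0.0778, and among single-exon genes 43 of 334 were higher and 61 lower, with a median of -0.15. Genes called higher had a median of 5985 bases of exon and a span of 37897 bases, against 4762 and 25298 for genes called lower and 5058 and 30039 for all tested. Genes are not independent replicates, and no test was made.

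With genes ranked by mean level and split into 4 groups of like size, 18.9% were called in the lowest group and 46.4, 50.1 and 47.3% in the next 3. On chromosome 19, 270 of 1079 tested genes were called higher and 131 lower, with a median change of 0.132. Of all genes tested 20.7% were called higher and 20.0% lower. This chromosome is named, after values were seen, because its median was the highest, with 0.0475 on chromosome X next. No test was made.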
